A study of Mus musculus with 7 samples.

Results

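The proteasome genes described here were all genes whose symbols begin with Psma, Psmb, Psmc, Psmd, Psme, Psmf or Psmg, pseudogene names left out, and they came to 50 of the 27514 genes present in both gene references of the study. They comprise 7 genes of the 20S alpha ring, 4 structural and 3 constitutive catalytic genes of the 20S beta ring, 3 immunoproteasome genes, 2 tissue-restricted 20S genes, 6 ATPases and 11 non-ATPase subunits of the 19S cap, 4 activators, 1 inhibitor and 7 assembly chaperones. The rule also took in Psmc3ip, a factor of homologous recombination, and Psme2b, a close copy of Psme2, neither of which is a proteasome subunit. The 2 tissue-restricted genes, Psma8 of the testis and Psmb11 of the thymic cortex, had 0 to 4 UMIs (unique molecular identifiers, which mark single captured RNA molecules) in any library and were not tested.

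The proteasome degrades proteins tagged with ubiquitin. Its 20S core is a barrel whose catalytic beta subunits Psmb5, Psmb6 and Psmb7 cut peptide bonds, and the 19S cap recognises, unfolds and feeds in the substrate. In lymphocytes and in cells exposed to interferon, the immunoproteasome subunits Psmb8, Psmb9 and Psmb10 can be built into newly made cores in place of Psmb5, Psmb6 and Psmb7, and such cores are known for the peptides they make for MHC class I presentation.

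The data were 10x 3′ single-cell RNA libraries of T cells from spleens of 8-week-old male C57BL/6 mice, all sorted as CD3+ NK1.1- TCRab+ TCRgd-. Activated double-negative T (DNT) cells (2 libraries) were grown from naive DNT cells over 3 days in vitro, with CD3 and CD28 antibodies as the stimulus and IL-2 at 20 ng/ml. Naive DNT cells (2 libraries) were also sorted as CD4- CD8- and as negative for the aGal-CD1d and LPC-CD1d tetramers, and they were compared with 1 library each of CD8 T cells, CD4 T cells and the whole TCRab+ gate (TCRab). Replicate 1 of both DNT groups and the 3 single libraries used kit v2, and replicate 2 of both DNT groups used kit v3. No unstimulated culture was part of the design, so stimulation and culture cannot be told apart. The 28101 cells kept gave 17255173 to 53342795 UMIs per library over the shared genes. Levels are given in CPM, the UMIs of a gene scaled to the same total in each library. Cd4 stood at 137 CPM in the CD4 library and at 0.204 CPM or less in the DNT libraries, Cd8a at 492 CPM in the CD8 library and at 3.49 CPM or less in the DNT libraries, and all 7 T cell markers were detected in all 7 libraries. Any pair of libraries shared at most 36 cell barcodes.

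The promoters of 4 genes are shown as examples of the motifs searched, in 2 constitutive catalytic subunits, 1 immunoproteasome subunit and 1 activator. Each sequence runs from 250 bases before to 50 bases after the RefSeq start of the gene on build GRCm38.p6, 5′ to 3′ on the gene's strand, with a motif match in capitals.
Psmb5 (chr14:54617946-54618245, minus strand): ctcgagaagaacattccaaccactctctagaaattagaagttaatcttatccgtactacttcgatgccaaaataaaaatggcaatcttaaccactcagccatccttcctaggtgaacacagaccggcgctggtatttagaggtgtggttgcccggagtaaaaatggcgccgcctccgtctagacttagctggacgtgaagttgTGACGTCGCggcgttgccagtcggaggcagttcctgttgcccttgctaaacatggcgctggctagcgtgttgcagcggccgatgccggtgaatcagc
Psmb6 (chr11:70525107-70525406, plus strand): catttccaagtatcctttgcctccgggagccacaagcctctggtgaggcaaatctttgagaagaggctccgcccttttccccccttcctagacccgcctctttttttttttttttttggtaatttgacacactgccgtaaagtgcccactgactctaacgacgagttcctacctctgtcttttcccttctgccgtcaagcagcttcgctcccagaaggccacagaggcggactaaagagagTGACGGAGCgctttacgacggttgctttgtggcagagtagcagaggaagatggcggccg
Psmb9 (chr17:34187281-34187580, minus strand): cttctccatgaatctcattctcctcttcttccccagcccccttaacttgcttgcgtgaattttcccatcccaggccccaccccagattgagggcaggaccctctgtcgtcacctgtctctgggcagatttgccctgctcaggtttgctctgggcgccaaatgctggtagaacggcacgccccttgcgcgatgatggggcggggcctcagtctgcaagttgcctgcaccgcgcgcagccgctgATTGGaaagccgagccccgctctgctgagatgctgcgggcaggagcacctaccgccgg
Psme1 (chr14:55578244-55578543, plus strand): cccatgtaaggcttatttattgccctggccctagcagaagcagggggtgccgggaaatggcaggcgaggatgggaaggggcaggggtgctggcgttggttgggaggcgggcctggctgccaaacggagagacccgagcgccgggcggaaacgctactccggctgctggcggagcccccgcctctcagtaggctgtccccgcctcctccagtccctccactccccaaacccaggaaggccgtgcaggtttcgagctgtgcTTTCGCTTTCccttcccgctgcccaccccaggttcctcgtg
The capitals mark TGACNNNGC in Psmb5 and Psmb6, a core that Nfe2l1 and related factors are known to bind. In Psmb9 they mark CCAAT read on the opposite strand, and in Psme1 they mark the core of interferon-response elements (GAAA, any 2 bases, GAAA), also read on the opposite strand. A promoter was available for 42 of the 50 genes, and both strands were searched. TGACNNNGC was in 14.3% of these 42 promoters and in 13.99% of all 27025 promoters of the same length, and its other form TGAGNNNGC was in 31.0% against 19.8%. The interferon-response core was in 11.9% against 3.99%, in Psmb3, Psmd4, Psmd9, Psme1 and Psmg4, and CCAAT in 35.7% against 41.1%. These matches describe letters in a window and are not binding sites.

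Proteasome transcripts made up 0.958% and 1.05% of all UMIs in the activated DNT libraries, against 0.558% and 0.524% in the naive DNT libraries, in the order of replicates 1 and 2. The mean number of proteasome UMIs per cell was 184 and 170 in activated DNT cells and 23.8 and 41.5 in naive DNT cells. Medians per cell were lower, at 158 and 81 in activated cells and 22 and 38 in naive cells. UMIs of all genes had means of 19187 and 16283 per activated cell, against 4262 and 7928 per naive cell. Their medians were 15724 and 9347 against 4090 and 7511. UMIs summed over a library do not separate more RNA of a gene per cell from another mix of cells or less of other RNA, and these cannot be told apart here. Among the 48 genes tested, both activated libraries lay above both naive libraries in CPM for 42 genes, where 30.8% of all genes tested did, and below them for 3 genes, Psmb9, Psmb10 and Psme2b, where 21.1% of all genes did. With the libraries scaled by TMM, which centres the bulk of genes, the counts were 33 above (28.1% of all genes) and 0 below (29.5%). The median log2 fold change of the 48 genes, activated over naive, was 0.91, beside -0.05 over all 12325 genes tested.

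**Figure D1:**
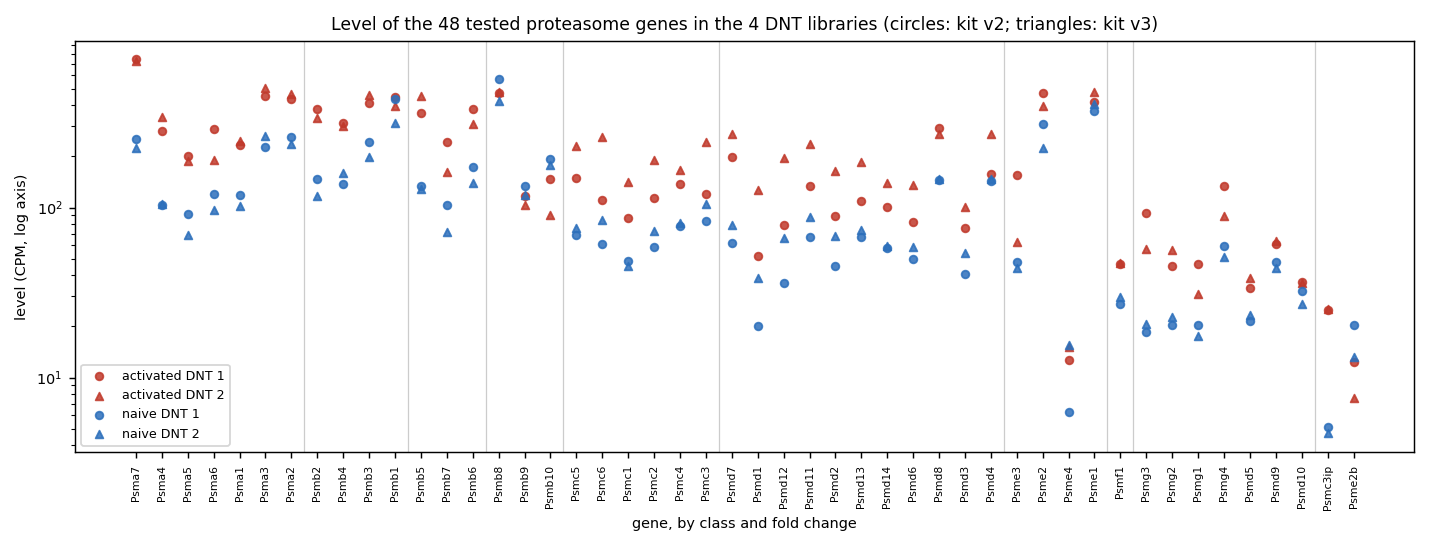
Level in CPM (log axis) of each of the 48 tested genes in the 2 activated DNT libraries (red) and the 2 naive DNT libraries (blue), with circles for kit v2 and triangles for kit v3 and vertical lines between classes. Red points lie above blue points for 42 genes, and the immunoproteasome genes Psmb8, Psmb9 and Psmb10 are among the exceptions.

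In edgeR's quasi-likelihood test of 2 against 2 libraries, with Benjamini-Hochberg adjustment over all genes, 1 of the 48 genes passed, where 10.4% of all genes did. It rose (5.32% of all genes rose), and 0 of the 48 fell (5.06% of all genes fell). The gene was Psmc3ip, which is not a subunit, so 0 true subunits passed. On simulated counts this test recovered 0% of 2-fold changes, so a gene that did not pass is not read as unchanged. The simulation gave every gene the same spread and no shift between kits. Its rate is therefore not the power for the proteasome genes. DESeq2 called 12 of the 48 higher (9.79% of all genes) and 0 lower (9.26%, and 19.1% in either direction). Replicate numbers match the kits, and with the kit as a block, called the blocked fit below, edgeR called 35 of the 48 genes higher (19.9% of all genes) and 2 lower (19.8%), where 39.7% of all genes were called in either direction. The blocked fit left 1 residual degree of freedom and the unblocked fit 2. Blocked p-values therefore lean mostly on a spread estimated over all genes. Within each kit taken alone, on the TMM scale, 39 of the 48 genes were higher in activated cells in both kits (39.2% of all genes) and 3 were lower in both (41.5%).

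**Figure D2:**
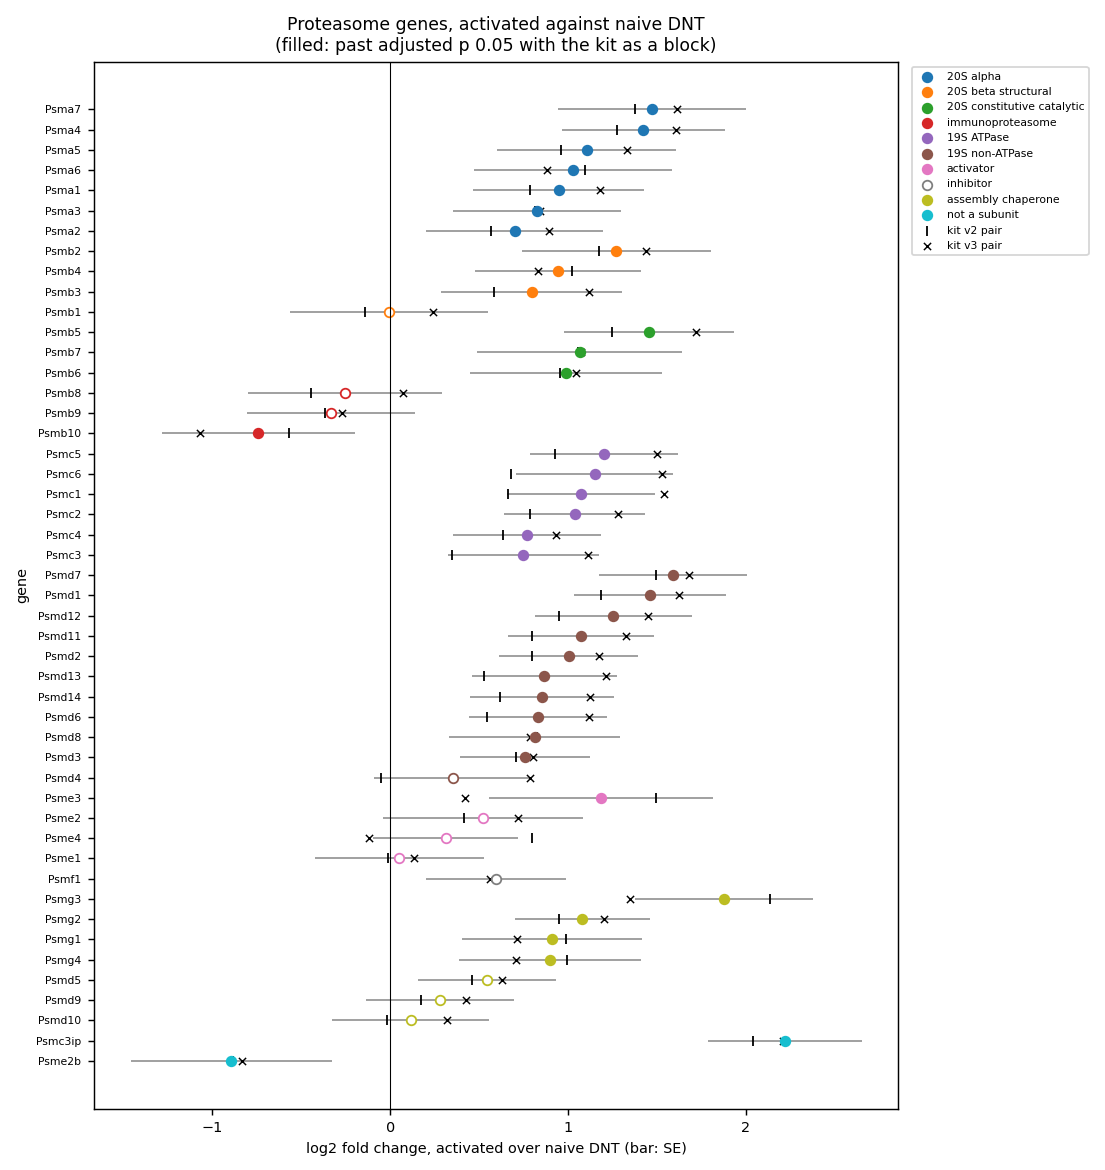
Log2 fold change, activated over naive DNT, with its standard error (bar) from edgeR without a block, for the 48 tested genes by class. Filled points passed adjusted p 0.05 in the blocked fit, ticks and crosses give the kit v2 and kit v3 pairs, and all alpha subunits, ATPases and constitutive catalytic subunits lie right of 0.

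All 7 alpha ring genes, which form the outer rings and the gate of the core, rose in the blocked fit, with a median log2 fold change of 1.03. Psma7 had 742 and 729 CPM in activated DNT cells, against 252 and 223 CPM in naive DNT cells. Its log2 fold change was 1.47 ± 0.53 (SE, n = 2 each), with an edgeR adjusted p of 0.121 and a blocked one of 0.000473. Psma4 had 282 and 339 CPM in activated cells and 103 and 104 CPM in naive cells, a log2 fold change of 1.42 ± 0.46 (edgeR adjusted p 0.0926, blocked 0.000731). For both genes the activated libraries lay well above the naive ones in each kit. Of the 4 structural beta genes, Psmb2, Psmb3 and Psmb4 rose in the blocked fit. Psmb1 had 445 and 395 CPM in activated cells, against 434 and 314 CPM in naive cells, so that the groups overlapped (log2 fold change -0.01 ± 0.56, edgeR adjusted p 0.995, blocked 0.890).

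The 3 constitutive catalytic genes rose in the blocked fit and summed to 985 and 921 CPM in activated DNT cells, against 411 and 340 CPM in naive DNT cells. Psmb5, the chymotrypsin-like subunit, had 361 and 452 CPM in activated cells and 134 and 128 CPM in naive cells, a log2 fold change of 1.45 ± 0.48 (edgeR adjusted p 0.0975, blocked 0.000718). Psmb6, the caspase-like subunit, had 381 and 308 CPM in activated cells and 174 and 140 CPM in naive cells (log2 fold change 0.99 ± 0.54, edgeR adjusted p 0.279, blocked 0.00488). Psmb7, the trypsin-like subunit, had 243 and 161 CPM in activated cells and 103 and 71.7 CPM in naive cells (log2 fold change 1.06 ± 0.58, edgeR adjusted p 0.274, blocked 0.00341). No activated library overlapped a naive one for these 3 genes in CPM.

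The immunoproteasome genes did not share this rise, and summed to 737 and 671 CPM in activated DNT cells, against 896 and 722 CPM in naive DNT cells. Psmb8, the counterpart of Psmb5, lies at chr17:34197721-34201454 beside Psmb9 at chr17:34181987-34187764 in the MHC region (GRCm38). It had 473 and 476 CPM in activated cells and 570 and 425 CPM in naive cells, with overlapping groups (log2 fold change -0.25 ± 0.54, edgeR adjusted p 0.806, blocked 0.543). Without naive replicate 1 its log2 fold change was 0.34. Psmb9, the counterpart of Psmb6, had 117 and 104 CPM in activated cells and 134 and 118 CPM in naive cells (log2 fold change -0.33 ± 0.47, edgeR adjusted p 0.696, blocked 0.270). It was 0.10 without naive replicate 1, so for both genes the sign of the unblocked fit turned without that library. Within kit v3, a pair that does not use it, the log2 ratio was 0.07 for Psmb8 and -0.27 for Psmb9. Within kit v2 it was -0.45 for Psmb8 and -0.37 for Psmb9. Psmb10, the counterpart of Psmb7, had 147 and 90.6 CPM in activated cells and 192 and 179 CPM in naive cells. It fell in the blocked fit (-0.82 ± 0.23, blocked adjusted p 0.0176) but not without the block (-0.74 ± 0.54, adjusted p 0.424).

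As shares of each catalytic pair, which need no scaling between libraries, the immunoproteasome genes were lower in activated DNT cells at all 3 sites. Psmb8 took 56.7% and 51.3% of the UMIs of Psmb8 and Psmb5 in activated cells, against 80.9% and 76.8% in naive cells, a difference of -24.9 points between the group means. For Psmb9 with Psmb6 the shares were 23.6% and 25.2% in activated cells and 43.5% and 45.7% in naive cells (-20.3 points). For Psmb10 with Psmb7 they were 37.6% and 36.0% in activated cells and 65.1% and 71.4% in naive cells (-31.4 points). Over the 6 genes together the share was 42.5% ± 0.465 in activated cells and 68.3% ± 0.386 in naive cells (SD, n = 2 each). The groups did not overlap at any site, each difference was several times the spread between replicates, and the 2 kits gave -25.7 and -25.9 points over the 6 genes. An exact permutation test of 2 against 2 libraries cannot give a two-sided p below 0.333. The share counts RNA, not assembled proteasomes, and 3′ UMIs are not scaled to length, so differences between libraries rather than the absolute shares are read.

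**Figure D3:**
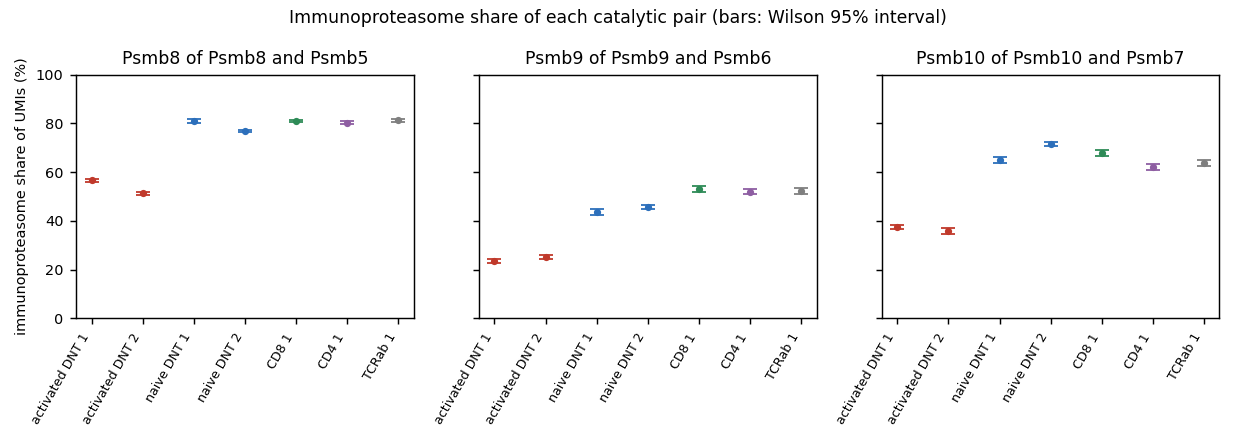
Share of UMIs (%) taken by the immunoproteasome gene of each catalytic pair in the 7 libraries, with Wilson 95% intervals that cover counting error only and are mostly smaller than the points. Both activated DNT libraries (red) lie below the other 5 libraries at all 3 sites.

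All 6 ATPases, which form the unfolding ring of the 19S cap, and 10 of the 11 non-ATPase subunits rose in the blocked fit. The 17 cap genes summed to 2086 and 3321 CPM in activated DNT cells, against 1133 and 1345 CPM in naive DNT cells, so the rise was larger in kit v3 (2.47-fold) than in kit v2 (1.84-fold) in plain CPM. Psmd7, a partner of the deubiquitinase in the lid, had 198 and 270 CPM in activated cells and 61.7 and 78.7 CPM in naive cells (log2 fold change 1.59 ± 0.42, edgeR adjusted p 0.0544, blocked 0.000379). Psmd1, a large scaffold of the base, had 52.1 and 127 CPM in activated cells and 20.1 and 38.4 CPM in naive cells (1.46 ± 0.43, edgeR adjusted p 0.0731, blocked 0.000796). With 1 library left out its edgeR adjusted p was 0.181 to 0.283, except 0.0283 without activated replicate 1. Psmd14, the deubiquitinase itself, had 101 and 139 CPM in activated cells, against 58.1 and 59.4 CPM in naive cells (blocked adjusted p 0.0123). The subunit outside the count was Psmd4, a ubiquitin receptor, with 156 and 272 CPM in activated cells and 143 and 148 CPM in naive cells (0.35 ± 0.44, edgeR adjusted p 0.657, blocked 0.285).

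Of the 4 activators, which open the core without the 19S cap, only Psme3 passed in the blocked fit. Psme3, the nuclear PA28 gamma activator, had 154 and 62.8 CPM in activated cells and 48.1 and 43.9 CPM in naive cells (1.18 ± 0.63, edgeR adjusted p 0.269, blocked 0.0260). The activated libraries lay far apart. Its log2 fold change was 0.056 without activated replicate 1 (edgeR adjusted p 0.980) and 1.83 without activated replicate 2 (0.0321), so the size of the difference rests on activated replicate 1. Psme1, the interferon-induced PA28 alpha, had 416 and 476 CPM in activated cells, against 371 and 408 CPM in naive cells (0.05 ± 0.48, edgeR adjusted p 0.962, blocked 0.854). Its partner Psme2, or PA28 beta, had 469 and 394 CPM in activated cells, against 311 and 225 CPM in naive cells (0.52 ± 0.56, edgeR adjusted p 0.597, blocked 0.0646). Neither passed, and the values of Psme2 are uncertain because Psme2b is a close copy whose reads may be shared. Psme4, or PA200, had 12.7 and 15.1 CPM in activated cells and 6.32 and 15.5 CPM in naive cells, overlapping groups. Psmf1, the PI31 regulator of the core, had 46.8 and 47.1 CPM in activated cells and 27.1 and 29.8 CPM in naive cells (blocked adjusted p 0.0578).

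Of the 7 assembly chaperones, Psmg1 to Psmg4, which build the 20S rings, rose in the blocked fit, and the 19S chaperones Psmd5, Psmd9 and Psmd10 did not pass. Psmg3 had 93.5 and 57.1 CPM in activated cells and 18.5 and 20.7 CPM in naive cells, with a log2 fold change of 1.87 ± 0.50 (edgeR adjusted p 0.0569, blocked 0.000538). Psmg4 had 133 and 89.4 CPM in activated cells and 59.1 and 51.2 CPM in naive cells (blocked adjusted p 0.0112). Psmc3ip, at chr11:101091823-101095436, had 25.1 and 25.4 CPM in activated cells and 5.10 and 4.71 CPM in naive cells, and rose without a block (2.22 ± 0.43, edgeR adjusted p 0.0246). That call was lost without either naive library (adjusted p up to 0.104). Psme2b had 12.3 and 7.61 CPM in activated cells and 20.3 and 13.2 CPM in naive cells (-0.89 ± 0.57, edgeR adjusted p 0.351, blocked 0.0184), and fell in the blocked fit.

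Several marker levels moved with activation. The 28 division genes summed to 1460 and 2302 CPM in activated DNT cells, against 163 and 321 CPM in naive DNT cells. Cells were thinned to 1500 UMIs, and those with at most 1 division UMI had 9741 and 9818 CPM of all proteasome genes in activated replicates 1 and 2, against 5164 CPM in naive replicate 2. No such value was computed for naive replicate 1, so only the kit v3 libraries are matched, and the part of division in the difference was not tested. Red cell genes (5) summed to 0 and 0.436 CPM in activated cells and 3697 and 819 CPM in naive cells, and 10 myeloid genes to 163 and 229 CPM against 1934 and 242 CPM in naive cells. Without the cells that had at least 0.5% of their UMIs from other cell types, a setting added after the data were seen, the median log2 fold change of the 48 genes was 0.89. The part of free RNA from those cells was not tested.

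Other genes of the pathway were counted in the same way, beside 19.9% of all genes higher and 19.8% lower in the blocked fit and 5.32% higher and 5.06% lower without the block. Of 22 partners and ubiquitin shuttles, 0 passed in edgeR without the block, and 9 rose and 2 fell with it. Among these, Pomp, the proteasome maturation protein, had 599 and 483 CPM in activated cells and 241 and 197 CPM in naive cells (1.16 ± 0.55, edgeR adjusted p 0.221, blocked 0.00191). Of 10 ubiquitin, E1 and E2 genes, Ube2c, a mitotic E2 that is also one of the division genes, rose (103 and 112 CPM in activated cells, 4.52 and 9.69 CPM in naive cells, edgeR adjusted p 0.00733). With the block, 2 of the 10 rose and 1 fell, and of 9 regulators 2 rose and 3 fell. The counts that rose in these 2 lists are near the share of all genes. Irf8, a transcription factor of the interferon-regulatory family, rose also without it, with 235 and 161 CPM in activated cells and 15.4 and 17.5 CPM in naive cells (edgeR adjusted p 0.0127). Ube2c and Irf8 were the genes of these pathway lists that passed without the block. Nfe2l1, which drives proteasome genes when proteasome activity is short, had 27.1 and 63.4 CPM in activated cells and 10.1 and 21.8 CPM in naive cells (1.37 ± 0.44, edgeR adjusted p 0.0900, blocked 0.00127). Irf1, a driver of immunoproteasome genes, had 27.1 and 71.8 CPM in activated cells and 79.9 and 199 CPM in naive cells (-1.63 ± 0.50, edgeR adjusted p 0.0809, blocked 0.000288). Of 11 genes of MHC class I processing, 0 passed without the block and 1 rose and 4 fell with it. H2-K1, an MHC class I heavy chain, had 533 and 1338 CPM in activated cells and 1622 and 2432 CPM in naive cells (blocked adjusted p 0.00185).

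Naive DNT cells were next compared with the other cells taken directly from spleen. The rule of size required both naive libraries to lie 1.5-fold or more above, or both below, the other library, with 20 CPM or more on the higher side, and 46 proteasome genes could meet it. Each of the CD8, CD4 and TCRab groups had 1 library, so no test was made. Against CD4, 0 proteasome genes were higher in naive DNT cells (10.5% of all genes that could pass) and 0 lower (3.1%), and against CD8 0 were higher (11.6%) and 0 lower (1.34%). Against TCRab 0 were higher (8.65%) and 2 lower (3.06%), Psmb9 and Psme2b. Without naive replicate 1, which leaves only the kit v3 library, 5, 9 and 8 proteasome genes passed against CD4, CD8 and TCRab, in either direction. Against CD8 both directions occurred, with ratios such as 1.70 for Psmd12 and 0.57 for Psme2. No share of all genes is given for this setting, so these counts are not read as a trait of proteasome genes. Both naive libraries lay below CD4 for 26 and above it for 6 of the 50 proteasome genes, below CD8 for 13 and above it for 15, and below TCRab for 30 and above it for 4. The share of all genes lying in this way was not computed, so these counts are not read as a trait of proteasome genes either. Over the 46 proteasome genes that could meet the rule, the median log2 ratio was -0.12 against CD4, 0.04 against CD8 and -0.18 against TCRab. Medians over all 4031, 3944 and 4082 genes that could meet it were 0.18, 0.33 and 0.11. A small constant was added to each level for these medians over all genes, but not for the proteasome genes. Psmb9 had 134 and 118 CPM in naive DNT cells, against 177 CPM in CD8, 192 CPM in CD4 and 203 CPM in TCRab. Its ratios to TCRab were 0.659 (95% exact interval 0.625 to 0.694) and 0.580 (0.557 to 0.604) in naive replicates 1 and 2, intervals that cover counting error only. Both naive libraries were thus below all 3 other libraries, which were made with kit v2, so that naive replicate 2 is compared across kits. Psme2b had 20.3 and 13.2 CPM in naive DNT cells and 38.8 CPM in TCRab. CD8 against CD4 gave 0 proteasome genes higher (2.95% of all genes) and 0 lower (5.5%).

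The immunoproteasome genes summed to 896 and 722 CPM in naive DNT cells, against 1008 CPM in CD8, 1012 CPM in CD4 and 1091 CPM in TCRab, and naive replicate 2 was made with another kit than these. The immunoproteasome share over the 6 catalytic genes was 68.5% and 68.0% in naive DNT cells, 71.7% in CD8, 69.6% in CD4 and 70.6% in TCRab, a narrow range beside the 42.8% and 42.1% of activated DNT cells. By site, the Psmb9 share was 43.5% and 45.7% in naive DNT cells and 52.0% to 53.1% in the other 3, while the Psmb8 share in naive cells, 80.9% and 76.8%, lay near their 80.3% to 81.2%.

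**Figure D4:**
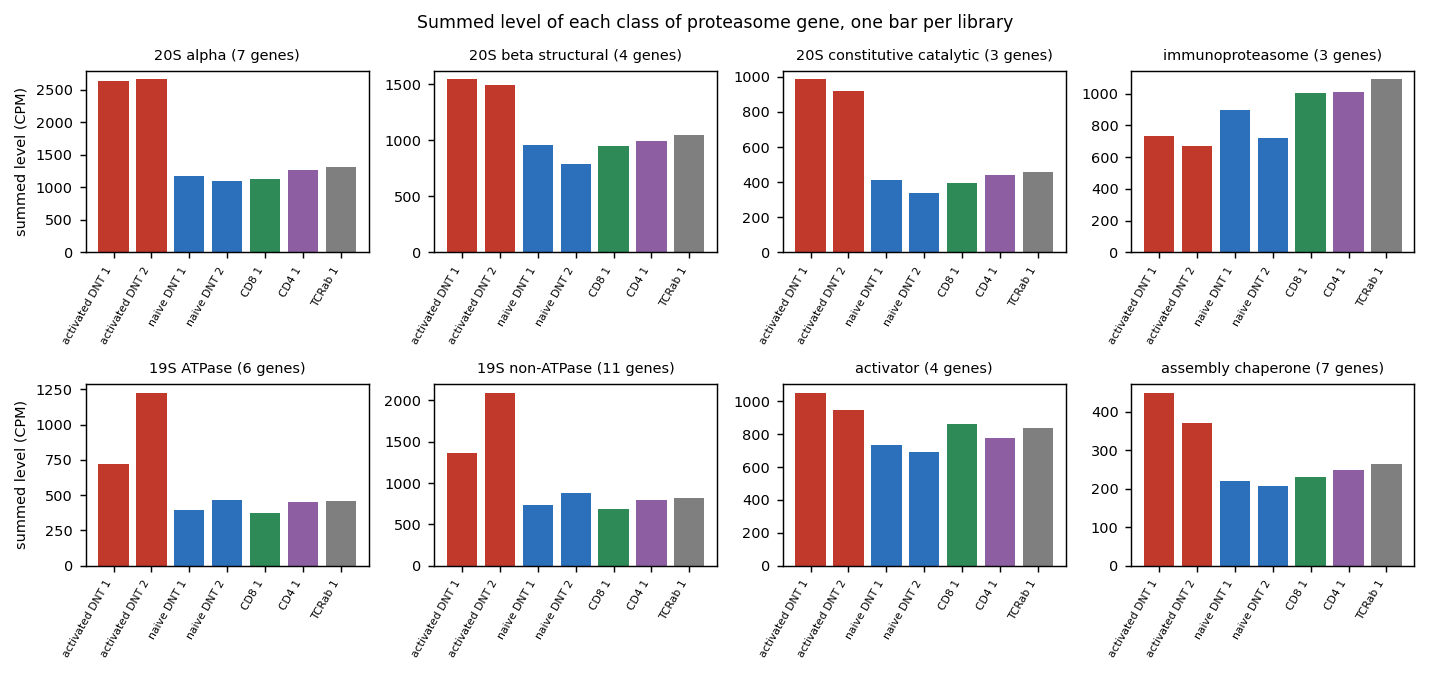
Summed level in CPM of 8 classes of proteasome genes, 1 bar per library, from activated DNT (red) through naive DNT (blue) to CD8, CD4 and TCRab. Activated bars are highest in every class but the immunoproteasome, where they lie at 737 and 671 CPM, against 722 to 1091 CPM in the other 5 libraries.

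Within libraries, the immunoproteasome and PA28 genes varied with the interferon response. Cells were thinned to 1500 UMIs and called interferon-responding with at least 4 UMIs of 20 interferon-induced genes, a list that holds no proteasome gene, and compared with cells that had 0. The 1 to 3 UMI cells between, 34.0% to 41.6% of cells in these libraries, were left out, so the classes are ranges of a score and not cell types. Between 56 and 163 cells qualified in each of the 5 libraries of unstimulated cells, and 1 and 5 cells in the activated libraries, too few to compare. Immunoproteasome genes summed to 1529 and 1001 CPM in responding cells of naive DNT replicates 1 and 2, against 853 and 703 CPM in their other cells. In CD8 they summed to 1567 against 968 CPM, in CD4 to 1633 against 954 CPM and in TCRab to 1578 against 1038 CPM. The level was thus higher in responding cells in 5 of 5 libraries, by 1.42-fold to 1.79-fold. Psmb8 was 1.40-fold to 1.79-fold higher, Psmb9 1.48-fold to 1.75-fold, Psmb10 1.45-fold to 2.01-fold, Psme1 1.24-fold to 1.46-fold and Psme2 1.26-fold to 1.70-fold, each in 5 of 5 libraries. The constitutive catalytic genes had ratios of 0.957 to 1.21 and were higher in 4 of 5. The alpha ring genes were higher in 5 of 5 (1.09-fold to 1.27-fold), as were all proteasome genes together (1.13-fold to 1.29-fold). Interferon genes summed over all cells were lower in activated DNT cells (76.1 and 106 CPM) than in naive DNT cells (340 and 438 CPM). The part of this in the catalytic shares was not tested.

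**Figure D5:**
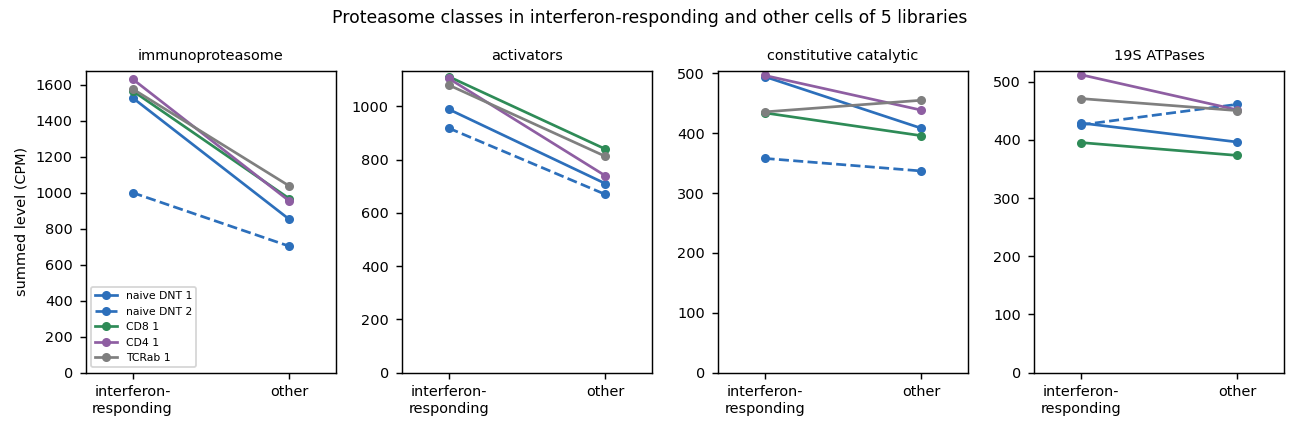
Summed level in CPM of 4 proteasome classes in interferon-responding cells (left of each panel) and in other cells (right), with 1 line for each of the 5 libraries. All 5 lines fall to the right for the immunoproteasome and the activators, while the lines for constitutive catalytic genes and ATPases are flatter and 1 line of each runs the other way.

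Cells with division RNA were compared in the 4 libraries with at least 30 cells that had 5 or more of its UMIs after the same thinning. Psmc3ip was higher in such cells in 4 of 4 libraries, by 2.90-fold to 4.28-fold over cells with at most 1 such UMI. The proteasome genes as a whole had ratios of 0.942 and 1.13 in activated replicates 1 and 2, and 1.54 in naive replicate 2 and 1.63 in CD8. In naive DNT replicate 2 and CD8, dividing cells thus had a higher share of proteasome RNA, and in activated cells the ratio was near 1. Cells with division RNA were deeper in all 4 libraries, with a median of 28034 and 48611 UMIs against 12048 and 8669 in activated replicates 1 and 2, 14884 against 7546.5 in naive replicate 2 and 12430 against 4871 in CD8. The part of depth was not tested.

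The share of cells with a UMI was also compared. After thinning to 1500 UMIs, Psmb5 was detected in 41.8% and 41.2% of activated DNT cells, against 17.9% and 17.2% of naive DNT cells, and Psmb10 in 17.3% and 14.2% against 25.5% and 23.6%. Before thinning Psmb10 was detected in 75.2% and 57.7% of activated cells and 53.6% and 70.9% of naive cells, where depth differed. Hbb-bs, a red cell gene that T cells lack, was detected after thinning in 0% and 0.0678% of activated cells and in 20.9% and 1.47% of naive cells, which is background from red cell RNA. In naive replicate 1 the share of cells with Psmb5 lay below that background, so no order is read from the shares of that library.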

How the data were processed

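The authors deposited unnormalized counts of UMIs for each gene in each barcode, from 7 10x libraries in 5 groups. Cell Ranger 2.1.0 and 3.0.1 and the mm10 (GRCm38) build are named in the submitters' processing notes, and 3.0.2 in the kit v3 matrix headers. Counts over the 27514 gene IDs common to the 27998 and 31053 genes of the 2 references were used. Cells needed 200 or more detected genes and no more than 10% mitochondrial UMIs, no doublet caller was applied, and UMIs were summed per library. The series calls the DNT libraries biological replicates without naming the animals. Unblocked p-values therefore rest on the spread between these libraries, which within each group also differ in kit, and not on a spread between named animals.

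Activated and naive DNT sums were filtered with filterByExpr, scaled by TMM and tested with edgeR 4.0.16 (robust quasi-likelihood F test, Benjamini-Hochberg adjustment at 0.05, R 4.3.3), with DESeq2 1.42.0 as an alternative. The standard error is the log2 fold change over the square root of F. Levels are plain CPM, in which the log2 ratios lie 0.14 above the TMM scale. Replicate numbers match the kit named in the labels, and the shifts of libraries with one number away from their group's mean had a correlation of 0.617 over 12325 genes, which are not independent, and of 0.663 over the 48 members. Blocked values stand beside calls they change. The test was first run on simulated counts with known changes.

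Full values were given for Psmb5 to Psmb10, Psme1 to Psme4, the 6 highest and 4 lowest fold changes, members that passed the unblocked test, and members past the fold between unstimulated groups. Psma4, Psmb1, Psmd4, Psmd14, Psmf1 and Psmg4 were named as well after their values were seen. The members and lists were chosen with earlier results of these data known. Gene coordinates are from GENCODE vM21. Analysis also used Python 3.11.15, NumPy 2.4.6, SciPy 1.17.1 and pandas 2.3.3.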

Additional observations from a re-analysis of the deposited data

How the results depend on the processing

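With 2 libraries a group, calls depend on how the spread is modelled. Over all genes 1280 were called, and 2348 by DESeq2, 2188 without a low-count filter, 4894 with the replicate block, 314 after thinning cells to 1500 UMIs, 260 without cells with 3 non-T UMIs, and 547 to 2074 with 1 library left out. Among proteasome genes 1 was called, and under the same settings 12, 4, 37, 0, 0 and 0 to 3. The rule of 3 non-T UMIs removed 707 of 1791 and 525 of 1549 activated cells and 616 of 4049 and 912 of 6728 naive cells, a larger share of the activated cells. That rule takes a fixed number of UMIs, and activated cells had more UMIs per cell. The rule of 0.5% of UMIs removed 0 and 5 activated cells and 69 and 137 naive cells. The larger share is therefore not read as more cells of other types. The median log2 fold change of 0.91 lay between 0.64 and 1.15 with 1 library left out.

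Psmb1, at -0.01, turned positive under DESeq2 (0.013), RLE size factors (0.013), no filter (0.0094), the replicate block (0.047), thinning (0.043) and without cells with 3 non-T UMIs (0.064), and was -0.45 to 0.61 with 1 library left out. In the same way, Psmb8 was -0.68 to 0.34, Psmb9 -0.68 to 0.10, Psme1 -0.16 to 0.29, Psmd9 -0.037 to 0.68 and Psmd10 -0.26 to 0.60. Psmb8 and Psmb9 turned positive without naive replicate 1, Psme1 (-0.16), Psmd9 and Psmd10 negative without naive replicate 2, and Psme1 (-0.076) and Psmd10 (-0.13) without activated replicate 1. The log2 ratio of summed levels was -0.20 for the immunoproteasome (-0.35 to -0.037 with 1 library left out), 1.13 for the 19S (0.75 without activated replicate 2, up to 1.42) and 0.49 for activators (0.55 thinned, 0.41 to 0.56 with 1 library left out). The Psmb8 share difference was -20.0 points thinned, -21.8 without cells with 3 non-T UMIs and -27.6 to -22.2 with 1 library left out, and that of Psmb9 -19.2, -21.0 and -21.3 to -19.2. Without naive replicate 1, 5, 9 and 8 proteasome genes passed the fold against CD4, CD8 and TCRab, with no share of all genes beside them. Naive cells and the other libraries then differ in kit. With both naive libraries at 2-fold, 0 passed against TCRab. The cause of these changes was not tested.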
